A study of Mus musculus with 16 samples.

Results

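Sca-1, the surface protein by which mouse LSK cells are recognised, is the product of Ly6a, and Ly6a lies on chromosome 15 among a cluster of related Ly6 genes. Here 6 of these genes, Ly6a, Ly6c1, Ly6c2, Ly6d, Ly6e and Ly6g, were followed through RNA sequencing of sorted bone marrow LSK cells. They were taken by symbol and are 6 of 53342 genes in the tables. All 6 are among the 16482 genes tested, but Ly6g passed the filter on low counts only through its PBS libraries, so its inclusion already requires a difference. Genotypes were wild type and Gata2 +9.5(Ets)-/-, in which both copies of the intronic Gata2 +9.5 enhancer carry a C-to-T transition in an Ets motif (the mutant). Mice on a C57BL/6J background, 8 to 14 weeks old, had been injected with 250 mg/kg of 5-fluorouracil (5-FU), which is toxic to cycling cells, or with PBS, and the cells were sorted 10 days later. The groups were mutant 5-FU (n = 3), wild-type 5-FU (n = 3), mutant PBS (n = 5) and wild-type PBS (n = 5), with 3000 to 10000 cells per replicate. The labels do not say whether replicates are separate mice, so p-values measure only how far these samples scatter, which may be technical.

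Ly6 proteins are small, cysteine-rich proteins of the LU (Ly6/uPAR) domain fold, mostly held in the outer membrane by a GPI anchor. Immunologists use several of them as antigens. Sca-1 marks stem and multipotent progenitor cells and can be induced by interferon. The Ly6C antigen, encoded by Ly6c1 and Ly6c2, marks inflammatory monocytes, plasma cells and subsets of T cells. Ly6d marks B-lineage specification of lymphoid progenitors, and Ly6g marks neutrophils. Ly6e, also interferon-inducible, is broadly expressed and is known for its effects on virus entry.

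In mm10/GRCm38 coordinates (GENCODE M21), all 6 are protein-coding genes of chromosome 15. In order along it stand Ly6d (74762056 to 74763620, minus strand), Ly6e (74955051 to 74959905, plus strand), Ly6a (74994877 to 74998031, minus strand), Ly6c1 (75044018 to 75048830, minus strand), Ly6c2 (75108158 to 75111970, minus strand) and Ly6g (75155240 to 75159126, plus strand). Ly6c1 and Ly6c2 are near copies: their coding sequences, 396 bases each, differ at 9 positions and are 97.7% identical. The first 90 coding bases, counted from the A of the start codon, hold 6 of the 9 differences, and are shown because they are part of what lets reads be told apart between the pair. Capitals mark the positions that differ.
Ly6c1: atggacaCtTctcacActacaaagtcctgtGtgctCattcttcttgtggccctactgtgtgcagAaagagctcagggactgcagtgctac
Ly6c2: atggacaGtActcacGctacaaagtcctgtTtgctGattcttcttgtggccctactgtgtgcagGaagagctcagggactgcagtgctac
Of the 100-base windows of the Ly6c1 transcript, 15.3% occur exactly in a Ly6c2 transcript, and 15.8% the other way round. Of 50-base windows the shares are 31.7% and 32.6%, so the split of counts between the pair is uncertain. Outside this pair no 100-base window was shared between any of the 6, while 5.0% of the 50-base windows of Ly6c1 occur in Ly6a, 1.4% of those of Ly6a in Ly6c1 and 0.4% in either direction between Ly6a and Ly6c2. The read length is not given in the sources used here. By coding sequence Ly6a was 83.2% identical to Ly6g and 82.0% to Ly6c1, against 52.2% to Ly6e and 45.7% to Ly6d.

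RefSeq (GRCm38.p6) promoter sequence was at hand for 3 of the 6 genes. The 250 bases before the first listed start site are shown for Ly6c1, Ly6c2 and Ly6g, because the first 2 are near copies with very different transcript levels and the third was the gene most sharply divided by treatment. They lie at chr15:75048838-75049087 (minus strand), chr15:75111972-75112221 (minus strand) and chr15:75155011-75155260 (plus strand). Capitals mark a motif match.
Ly6c1 promoter: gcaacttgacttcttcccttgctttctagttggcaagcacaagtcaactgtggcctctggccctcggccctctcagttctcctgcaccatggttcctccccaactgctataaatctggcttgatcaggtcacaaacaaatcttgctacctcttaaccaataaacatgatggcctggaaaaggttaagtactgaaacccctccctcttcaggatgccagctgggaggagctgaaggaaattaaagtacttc
Ly6c2 promoter: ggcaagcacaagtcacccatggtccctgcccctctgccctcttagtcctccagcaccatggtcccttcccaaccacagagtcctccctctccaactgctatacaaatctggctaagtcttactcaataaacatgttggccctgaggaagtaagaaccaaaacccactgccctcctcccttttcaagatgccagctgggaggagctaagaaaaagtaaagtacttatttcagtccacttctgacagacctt
Ly6g promoter: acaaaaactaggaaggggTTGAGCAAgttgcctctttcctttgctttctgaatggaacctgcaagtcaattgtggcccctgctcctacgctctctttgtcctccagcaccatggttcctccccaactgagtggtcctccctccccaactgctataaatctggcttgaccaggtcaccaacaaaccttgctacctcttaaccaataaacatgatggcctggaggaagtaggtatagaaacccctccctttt
Aligned end to end, the Ly6c1 and Ly6c2 promoters were 57.7% identical. Both strands were searched for an interferon response core (a pair of GAAA repeats 2 bases apart, in 2.98% of 32851 promoters), a STAT site (TTCNNNGAA, in 7.02%) and a C/EBP-like site (TTGCNNAA, in 9.56%). The Ly6g promoter held the single match, TTGAGCAA at −232 to −225 from the start, which reads as the C/EBP-like motif on the opposite strand. These are letters in a window and no evidence of binding.

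The libraries held between 19.37 and 28.88 (in units of 1e6) expected counts. Kit, the other antigen the sort required, averaged 150 CPM in mutant 5-FU, 424 CPM in wild-type 5-FU, 204 CPM in mutant PBS and 261 CPM in wild-type PBS libraries. CPM are counts scaled to 1e6 per library with TMM factors, and TPM, the unit used below to compare genes, corrects for transcript length. All 16 listed genes of stem cells and LSK cells were detected in every group, at a summed 1441 to 1518 CPM in mutant 5-FU, 2130 to 2631 CPM in wild-type 5-FU, 1347 to 2592 CPM in mutant PBS and 1736 to 2974 CPM in wild-type PBS libraries. Immunoglobulin genes, which antibody-secreting cells express, took between 5.69 and 26.6% of counts in mutant 5-FU, 0.0392 and 0.332% in wild-type 5-FU, 3.67 and 50.2% in mutant PBS and 6.37 and 44.2% in wild-type PBS libraries. PBS replicate 3 of each genotype had the highest share and the lowest TMM factor (0.508 in the mutant, 0.547 in wild type), and a low factor raises every CPM of a library. For that reason levels are given below in TPM, and fold changes come from counts. TPM carries a shift of its own: on log2(TPM + 1) the median gene differed by 1.01 after 5-FU in wild type, 0.325 after 5-FU in the mutant and −0.593 between genotypes after 5-FU, against −0.107, −0.0261 and 0.0723 in the count fit. The mutated Gata2 element is intronic, so the Gata2 transcript is no check of the genotype labels. Its log2 difference between genotypes was −0.11 ± 0.38 after 5-FU (edgeR adjusted p = 0.894) and 0.60 ± 0.30 under PBS (SE; edgeR adjusted p = 1).

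Ly6c2 and Ly6d fell in wild-type cells after 5-FU, as did Ly6g, which had to differ in order to be tested. These 3 of the 6 genes were lower in wild-type 5-FU than in wild-type PBS libraries by edgeR's quasi-likelihood test at a Benjamini-Hochberg adjusted p under 0.05, where 9.31% of all genes tested were called lower. The same 3 did not overlap between the groups, as did 15.8% of genes in that direction. Within the mutant 1 of the 6, Ly6g, was lower after 5-FU, with 1.36% of genes called lower. Between genotypes 0 of 6 passed after 5-FU (1.95% of genes called in either direction) and 0 of 6 under PBS (0.0182%). For the difference between genotypes in the response, 0 of 6 passed (0.589%). At an unadjusted p under 0.05 edgeR would call 2 of 6 between genotypes after 5-FU (Ly6c2, Ly6d; 18.4% of all genes), 0 of 6 under PBS (3.28%) and 2 of 6 (Ly6c2, Ly6d) for the response (10.8%). DESeq2 called 2 of 6 between genotypes after 5-FU (7.94% of all genes), 0 of 6 under PBS (0.158%) and 1 of 6 for the response (3.53%). In bulk RNA, fewer cells of a type and less RNA per cell cannot be told apart.

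**Figure D1:**
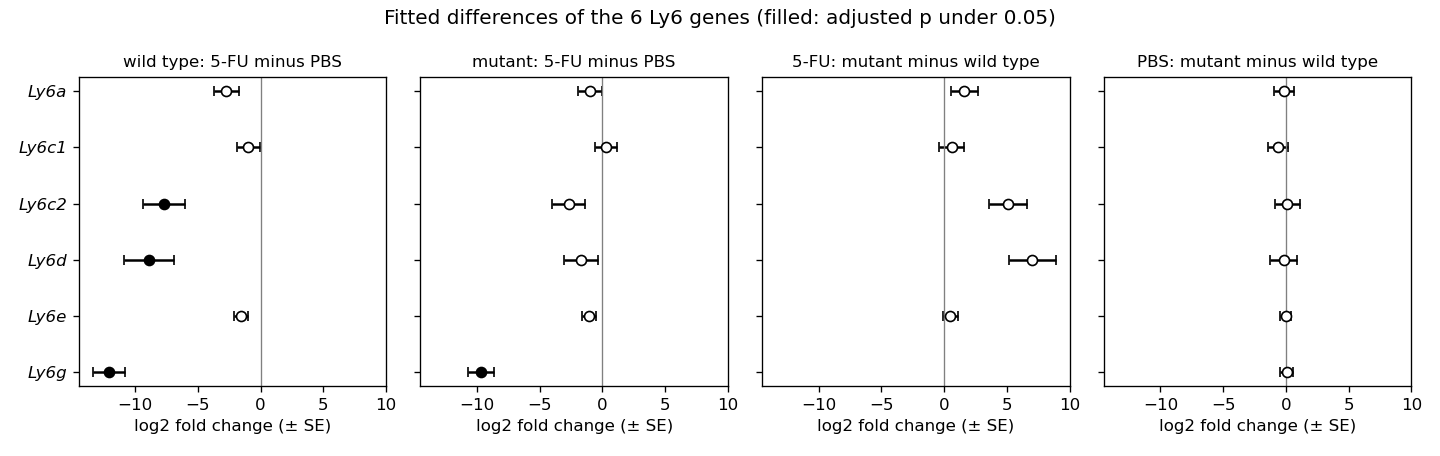
Log2 fold change (x axis) with its standard error for each of the 6 genes (rows) in 4 comparisons (panels), from the edgeR fit over all 16 libraries; filled points have an adjusted p under 0.05. Ly6c2, Ly6d and Ly6g are filled on the left of 0 in wild type, Ly6g alone in the mutant, and none between genotypes. The fitted values of Ly6g after 5-FU depend on the prior count, since its 5-FU counts are at or near 0, and none is drawn between genotypes after 5-FU.

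Ly6a, the gene of the sorting antigen itself, was abundant in all 16 libraries. Mutant 5-FU replicates 1 to 3 had 897, 1005 and 960 TPM, and wild-type 5-FU replicates had 542, 376 and 812 TPM. Mutant PBS replicates 1 to 5 had 1000.05, 921, 1445, 480 and 389 TPM, and wild-type PBS replicates had 783, 995, 1709, 853 and 443 TPM. The 3 mutant 5-FU libraries lay close together and above all 3 wild-type 5-FU libraries, while both 5-FU groups lay within or near the wide range of the PBS groups. In the edgeR fit the mutant exceeded wild type after 5-FU by 1.61 ± 1.05 on the log2 scale (SE; edgeR adjusted p = 0.408). An exact permutation test (two-sided) gave p = 0.1, the least that 3 against 3 can reach, and 21.5% of all genes were higher in the mutant without overlap. Wild-type 5-FU libraries differed from wild-type PBS libraries by −2.72 ± 1.04 (edgeR adjusted p = 0.0818), and mutant 5-FU from mutant PBS libraries by −0.97 ± 0.95 (edgeR adjusted p = 0.761). Under PBS the genotypes differed by −0.13 ± 0.79 (edgeR adjusted p = 1). The responses of the genotypes differed by 1.75 ± 1.3 (edgeR adjusted p = 0.627). On log2(TPM + 1) the 5-FU difference relative to the median gene was 0.0064 for mutant and −1.68 for wild-type libraries. With the immunoglobulin share as a covariate in the count fit the difference was 0.83 for mutant and 0.61 for wild-type libraries, so the direction turned in both genotypes.

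Ly6e had the steadiest level of the 6. It stood at 1203, 1263 and 1873 TPM in mutant 5-FU replicates and at 1876, 1672 and 2157 TPM in wild-type 5-FU replicates. The mutant PBS replicates had 1867, 1638, 1629, 1864 and 1717 TPM, and the wild-type PBS replicates 1471, 1755, 1843, 1635 and 1666 TPM. All 4 groups overlapped, and all 16 values lay between 1203 and 2157 TPM. By counts the 5-FU differences were −1.57 ± 0.56 in wild type (edgeR adjusted p = 0.0671) and −1.07 ± 0.55 in the mutant (edgeR adjusted p = 0.441), neither past the threshold. Relative to the median gene the difference in wild type was −1.46 by counts and −0.83 on log2(TPM + 1). Between genotypes Ly6e differed by 0.48 ± 0.59 after 5-FU (edgeR adjusted p = 0.668) and by −0.02 ± 0.46 under PBS (edgeR adjusted p = 1).

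Ly6c2 was among the most abundant genes of PBS libraries and scarce in wild-type cells after 5-FU. Its level was 1080, 702 and 416 TPM in mutant 5-FU replicates, against 45.3, 5.17 and 74.4 TPM in wild-type 5-FU replicates. Mutant PBS replicates had 2351, 2008, 4474, 1224 and 693 TPM, and wild-type PBS replicates had 1458, 2671, 3533, 3128 and 873 TPM. Every wild-type 5-FU library lay below every other library, and the mutant 5-FU libraries overlapped the lower end of the mutant PBS range. By mean TPM it ranked 159th of all genes in mutant 5-FU and 4856th in wild-type 5-FU libraries, against 38th in mutant PBS and 30th in wild-type PBS libraries. The log2 fold change after 5-FU in wild type was −7.69 ± 1.69 (SE; edgeR adjusted p = 0.0117). The call ended without wild-type 5-FU replicate 1 (adjusted p = 0.0622) or replicate 2 (adjusted p = 0.053). In the mutant the difference was −2.70 ± 1.3 (edgeR adjusted p = 0.408). Between genotypes after 5-FU it was 5.12 ± 1.53 (edgeR adjusted p = 0.11; exact permutation p = 0.1), and in the response to 5-FU 5.00 ± 1.74 (edgeR adjusted p = 0.269). Under PBS the genotypes differed by 0.12 ± 0.99 (edgeR adjusted p = 1).

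Its near copy Ly6c1 stayed at a low level throughout. It had 4.39, 5.16 and 7.64 TPM in mutant 5-FU, 2.73, 2.88 and 14.1 TPM in wild-type 5-FU, 1.73 to 3.31 TPM in mutant PBS and 1.20 to 6.50 TPM in wild-type PBS libraries. The 3 mutant 5-FU values lay above all 5 mutant PBS values in TPM, but wild-type 5-FU replicate 3 was the highest of all and the wild-type groups overlapped. Among counts given to either copy, Ly6c1 took 0.425 to 1.89% in mutant 5-FU, 6.03 to 39.3% in wild-type 5-FU, 0.0619 to 0.38% in mutant PBS and 0.0606 to 0.247% in wild-type PBS libraries. In wild type, where Ly6c2 fell after 5-FU, Ly6c1 did not pass the test (log2 fold change −0.98 ± 0.92, edgeR adjusted p = 0.446), and relative to the median gene the difference was −0.363 on log2(TPM + 1). In the mutant its 5-FU difference was 0.26 ± 0.89 (edgeR adjusted p = 0.942). Genotypes differed by 0.61 ± 1.00 after 5-FU (edgeR adjusted p = 0.757) and by −0.63 ± 0.78 under PBS (edgeR adjusted p = 1). Summed as 1 feature, the pair was lower in wild-type 5-FU than in wild-type PBS libraries (log2 fold change −7.48, edgeR adjusted p = 0.0115).

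Ly6d had the widest gap between genotypes after 5-FU. The level was 473, 198 and 108 TPM in mutant 5-FU replicates, against 7.71, 0.60 and 4.22 TPM in wild-type 5-FU replicates, where 73, 6 and 36 counts lie behind it. Mutant PBS replicates had 394, 339, 854, 194 and 68.5 TPM, and wild-type PBS replicates 388, 413, 949, 470 and 149 TPM. All wild-type 5-FU libraries stood below the other 13, and the mutant 5-FU libraries lay inside the mutant PBS range. Wild-type 5-FU libraries were lower than wild-type PBS libraries (log2 fold change −8.88 ± 1.97, edgeR adjusted p = 0.0124), a call that ended without wild-type 5-FU replicate 1 (adjusted p = 0.0536) or replicate 2 (adjusted p = 0.0693). The 5-FU difference in the mutant was −1.67 ± 1.36 (edgeR adjusted p = 0.697). Mutant and wild type differed by 7.03 ± 1.85 after 5-FU (edgeR adjusted p = 0.073; exact permutation p = 0.1) and by −0.18 ± 1.10 under PBS (edgeR adjusted p = 1). The difference in response was 7.21 ± 2.05 (edgeR adjusted p = 0.157). Over 21 alternatives the adjusted p of the difference after 5-FU ran from 6.19e-05 to 0.462, with 9 of them past the threshold and the mutant higher in all. Codes in the sample labels, of unstated meaning, are written with a leading zero in the mutant 5-FU libraries and without one in the wild-type 5-FU libraries, so among 5-FU libraries this writing and genotype cannot be told apart. With the writing as a covariate over all groups, the difference after 5-FU was 4.00 for Ly6d (adjusted p = 0.462), 2.62 for Ly6c2 (adjusted p = 0.723) and −1.07 for Ly6a (adjusted p = 0.859). In each PBS group the libraries without a leading zero, replicates 4 and 5, had the lowest immunoglobulin shares. This covariate therefore cannot tell the writing from that share. Within the 1 code prefix that holds both treatments in wild type, with a single 5-FU library, the fall was −7.01 for Ly6d (adjusted p = 0.388) and −5.58 for Ly6c2 (adjusted p = 0.39).

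Ly6g was measurable in every PBS library and nearly gone after 5-FU in both genotypes. Mutant 5-FU replicates held 2, 0 and 0 counts, and wild-type 5-FU replicates held 0 in each. Mutant PBS replicates had 375, 401, 572, 408 and 307 counts, or 15.2 to 26.5 TPM, and wild-type PBS replicates 624, 319, 359, 166 and 588 counts, or 7.40 to 40.9 TPM. The 5-FU and PBS libraries did not overlap in either genotype, as was true of 15.8% of genes lower in wild type and 4.94% of genes lower in the mutant. Ly6g was at least 227-fold lower in wild-type 5-FU than in wild-type PBS libraries, taking a floor of 3 counts per library (edgeR adjusted p = 9.81e-05, a description for a gene tested only through its PBS libraries). In the mutant the pooled counts gave a PBS to 5-FU ratio of 831, with a 95% counting interval of 230 to 6870 (edgeR adjusted p = 0.000219). That interval covers counting error only. Under PBS the genotypes differed by 0.05 ± 0.49 (edgeR adjusted p = 1), and after 5-FU both groups were at or under the floor, so no fold is given.

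**Figure D2:**
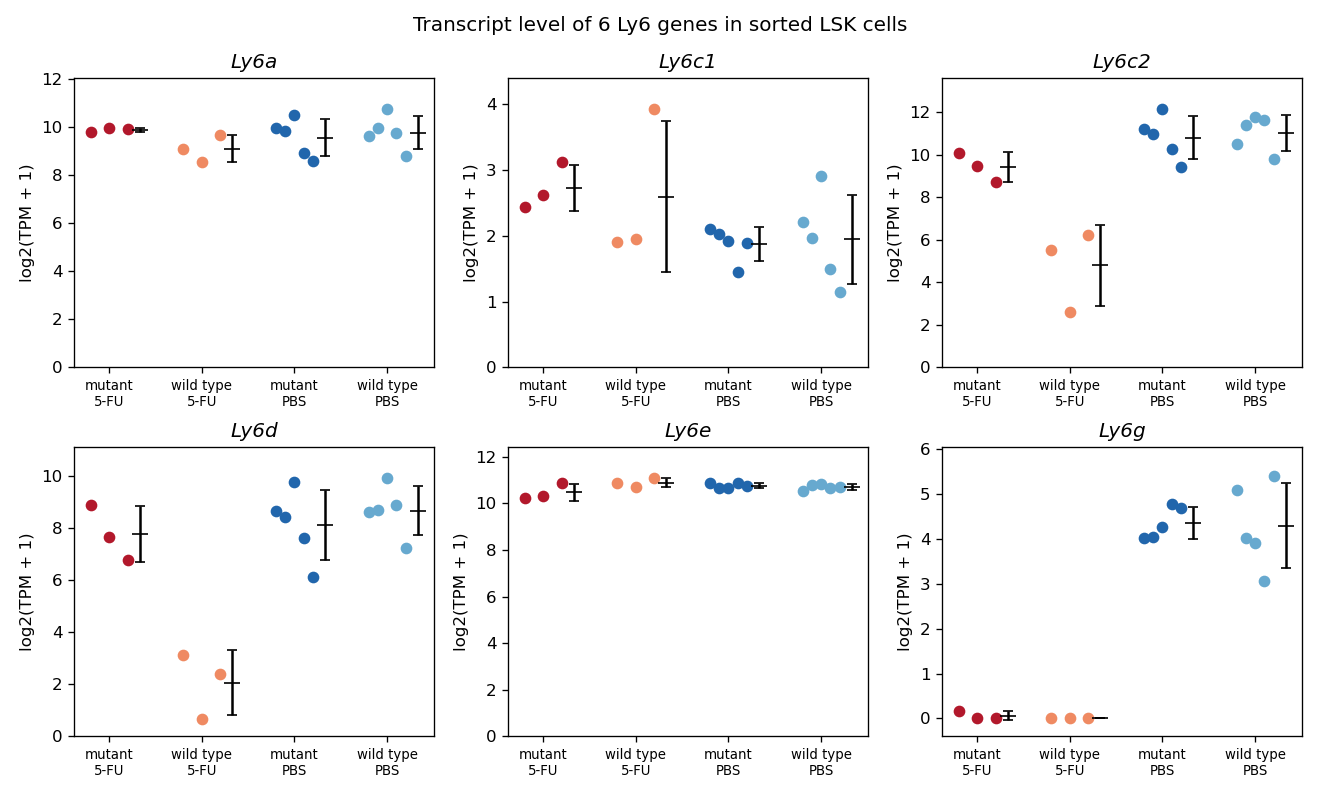
Level of each of the 6 genes as log2(TPM + 1) (y axes, of different range) in the 4 groups; points are libraries, and the bar beside each group is its mean ± SD on that scale (n = 3 after 5-FU, n = 5 under PBS). Ly6c2 and Ly6d of wild-type 5-FU libraries lie below all other libraries, Ly6g is at or near 0 in both 5-FU groups, and Ly6e varies little on this scale.

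The make-up of the Ly6 transcripts changed with these falls. Summed over the 6 genes, TPM averaged 3398 ± 243 in mutant 5-FU, 2531 ± 505 in wild-type 5-FU, 5133 ± 2117 in mutant PBS and 5462 ± 1889 in wild-type PBS libraries (SD). Ly6e made up 42.8% of this sum in mutant 5-FU, 75.9% in wild-type 5-FU, 38.9% in mutant PBS and 33.6% in wild-type PBS libraries on average. Ly6c2 made up 21.3% in mutant 5-FU, 1.50% in wild-type 5-FU, 38.4% in mutant PBS and 40.7% in wild-type PBS libraries. Ly6a made up 28.2% in mutant 5-FU, 22.2% in wild-type 5-FU, 16.0% in mutant PBS and 17.0% in wild-type PBS libraries. In mutant 5-FU libraries the order by mean TPM was Ly6e, Ly6a, Ly6c2, Ly6d, Ly6c1 and Ly6g, and the ranges of Ly6a and Ly6c2 and those of Ly6c2 and Ly6d overlapped. In wild-type 5-FU libraries it was Ly6e, Ly6a, Ly6c2, Ly6c1, Ly6d and Ly6g, and the ranges of Ly6c2, Ly6c1 and Ly6d all overlapped. In both PBS groups Ly6c2 came first, then Ly6e, Ly6a, Ly6d, Ly6g and Ly6c1. There the range of Ly6c2 overlapped those of Ly6e, Ly6a and Ly6d, and the ranges of Ly6a and Ly6d overlapped. Those of Ly6e and Ly6a overlapped under PBS in wild type only.

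**Figure D3:**
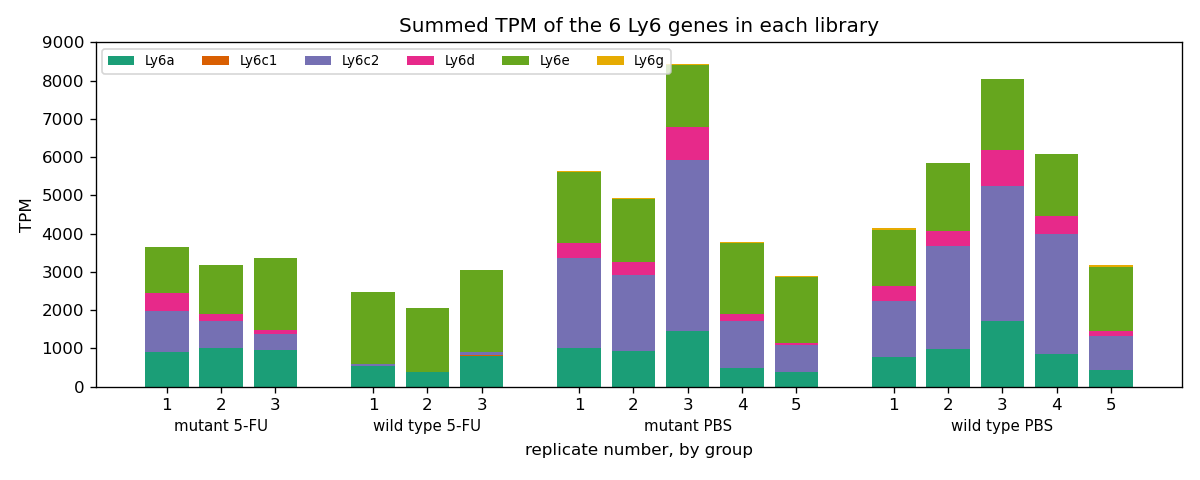
TPM of the 6 genes stacked for each of the 16 libraries (x axis: replicate number within the group). The Ly6e segment is of similar height everywhere, while the Ly6c2 and Ly6d segments nearly vanish in the wild-type 5-FU libraries and are tallest in PBS replicate 3 of both genotypes.

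Ly6d moved with immunoglobulin transcripts across all 4 groups, as did Ly6c2 apart from a lower ratio in mutant 5-FU libraries. Immunoglobulin counts per library ran from 11080 to 11220000, yet for each 1000 of them every library held between 0.537 and 2.28 Ly6d counts. By group the range was 0.684 to 1.28 in mutant 5-FU, 0.537 to 1.45 in wild-type 5-FU, 0.802 to 1.84 in mutant PBS and 0.926 to 2.28 in wild-type PBS libraries. For Ly6c2 it was 2.68 to 4.24 in mutant 5-FU, 4.50 to 10.5 in wild-type 5-FU, 5.22 to 10.7 in mutant PBS and 3.85 to 9.38 in wild-type PBS libraries. The mutant 5-FU range of Ly6c2 thus lay below those of mutant PBS and wild-type 5-FU, and overlapped that of wild-type PBS. Ly6a did not keep such a ratio in wild-type 5-FU libraries, where it had 117 to 387 counts per 1000. In the other groups Ly6a had 2.76 to 10.2 in mutant 5-FU, 2.43 to 5.71 in mutant PBS and 2.14 to 4.68 in wild-type PBS libraries. Across the 10 PBS libraries log2(TPM + 1) of Ly6a followed the immunoglobulin share (Pearson's r = 0.966), as did Ly6d (0.936) and Ly6c2 (0.91). With the immunoglobulin share as a covariate, Ly6d and Ly6c2 were lower after 5-FU in wild type, with log2 fold changes of −4.54 for Ly6d (edgeR adjusted p = 0.00135) and −4.06 for Ly6c2 (edgeR adjusted p = 0.0125). In that fit Ly6d was higher in the mutant after 5-FU by 4.54 (edgeR adjusted p = 0.00191), and differed in its response by 4.87 (edgeR adjusted p = 0.00511). The share entered the fit as a linear term in percent, which is not the ratio of counts given above. All wild-type 5-FU libraries (0.0392 to 0.332%) also lay below all others (3.67% or more). A change beyond that of the immunoglobulin transcripts was therefore not tested by this fit.

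**Figure D4:**
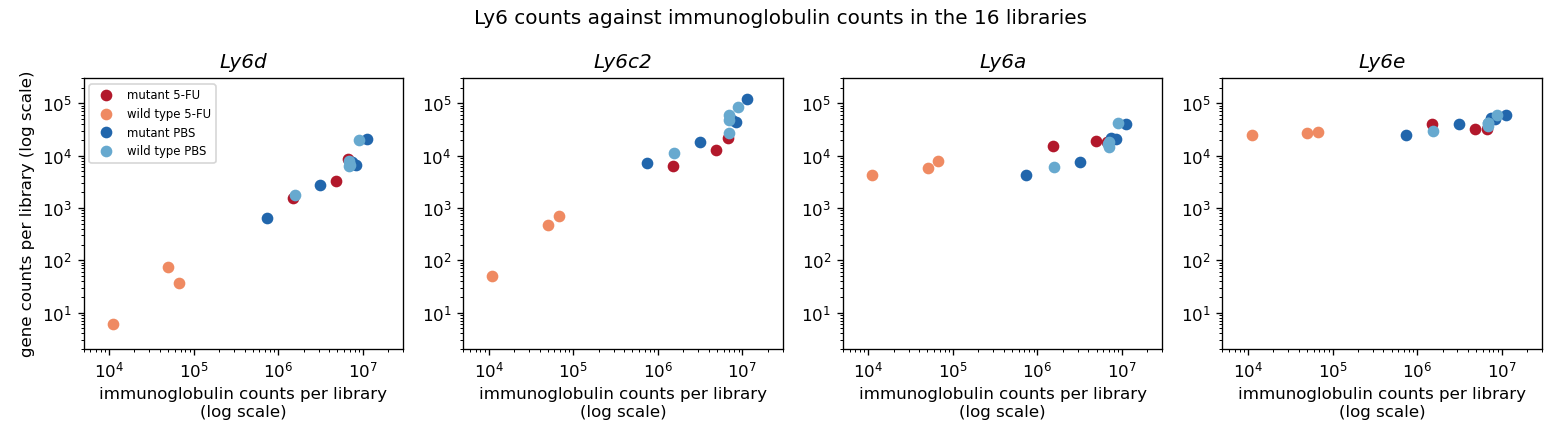
Counts of 4 Ly6 genes (y axis, log scale) against the summed counts of immunoglobulin genes (x axis, log scale) in the 16 libraries, coloured by group. Ly6d and Ly6c2 rise along a line from the 3 wild-type 5-FU libraries on the left to the PBS libraries on the right, while Ly6e counts are of similar size throughout.

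Plasma cell genes moved beside Ly6d and Ly6c2. Of 15 listed plasma cell genes, 14 fell after 5-FU in wild type, where 9.31% of all genes were called lower (median log2 fold change −7.11, against −0.11 over all genes). The smallest p-values were those of Sdc1, the plasma cell surface proteoglycan CD138 (−4.05 ± 0.63, edgeR adjusted p = 0.00104), and Irf4, a transcription factor of plasma cells (−7.13 ± 1.16, edgeR adjusted p = 0.0018). In the mutant 0 of 15 changed (median −0.51), a count near the 2.2% of all genes called there in either direction. After 5-FU 9 of 15 were higher in the mutant than in wild type, where 1.49% of all genes were called higher (median 6.04, against 0.07 over all genes). The smallest p-values were those of Irf4 (6.35 ± 1.15, edgeR adjusted p = 0.0171) and Pou2af1, a B-lineage coactivator (6.57 ± 1.21, edgeR adjusted p = 0.0178). Their summed level ran from 2636 to 20330 CPM in mutant 5-FU, 280 to 553 CPM in wild-type 5-FU, 1785 to 75970 CPM in mutant PBS and 3422 to 66290 CPM in wild-type PBS libraries, and no listed gene was at 0 throughout a group. Of 15 B cell genes, 5 of them tested only through their PBS libraries, 13 fell in wild type (9.31% of all genes), 1 fell in the mutant (1.36%) and 6 were higher in the mutant than in wild type after 5-FU (1.49%). By smallest p in wild type the first were Ms4a1, the B-cell antigen CD20 (−9.39 ± 1.19, edgeR adjusted p = 0.000266), and Blnk, an adaptor of B-cell receptor signalling (−4.97 ± 0.73, edgeR adjusted p = 0.00075). Of these, Rag1, a recombinase of lymphoid precursors, was at 0 in all mutant 5-FU libraries, and the B-cell factor Pax5, Blk and Fcmr were at 0 in all wild-type 5-FU libraries. Blk, Fcmr and Ms4a1 (mean 0.0304 CPM in wild-type 5-FU) are not among the 5, since mutant 5-FU libraries also carried them through the filter. No wild-type 5-FU library did, so their tests against that group are a description. The counts of genes tested only through PBS libraries leave out such genes in every list. The summed level of the 15 B cell genes was 87.2 to 301 CPM in mutant 5-FU, 24.2 to 38.3 CPM in wild-type 5-FU, 124 to 1121 CPM in mutant PBS and 164 to 914 CPM in wild-type PBS libraries. Of 14 monocyte and macrophage genes, 5 fell in wild type (9.31% of all genes) and 0 changed in the mutant (2.2% in either direction). After 5-FU 2 were higher in the mutant than in wild type (1.49%), among them the macrophage marker Adgre1 (4.50 ± 0.89, edgeR adjusted p = 0.0219). Their summed level was 426 to 978 CPM in mutant 5-FU, 168 to 424 CPM in wild-type 5-FU, 865 to 2406 CPM in mutant PBS and 794 to 2233 CPM in wild-type PBS libraries. Of 14 T and NK cell genes tested, 7 of them only through PBS libraries, 10 fell in wild type (9.31% of all genes). In the mutant 2 of the 14 fell (1.36%), and 4 were higher in the mutant than in wild type after 5-FU (1.49%). The summed level of this list was 94.9 to 188 CPM in mutant 5-FU, 138 to 218 CPM in wild-type 5-FU, 248 to 456 CPM in mutant PBS and 176 to 567 CPM in wild-type PBS libraries. Cd3e and Cd8a were at 0 in all 5-FU libraries, and Cd2, Cd3g and Gzma at 0 in the wild-type ones. Cd2 is not among the 7, but it too passed the filter without any wild-type 5-FU library. Of 11 early lymphoid genes, 1 of them tested only through PBS libraries, 8 fell in wild type (9.31% of all genes) and 6 in the mutant (1.36%). In wild type 1 rose, where 14.9% of all genes were called in either direction. After 5-FU, 2 were higher in the mutant than in wild type (1.49%) and 4 lower (76 of all 16482 genes tested). Summed, the 11 early lymphoid genes stood at 212 to 271 CPM in mutant 5-FU, 514 to 858 CPM in wild-type 5-FU, 894 to 1945 CPM in mutant PBS and 1196 to 1841 CPM in wild-type PBS libraries. Of 10 plasmacytoid dendritic cell genes tested, 2 of them only through PBS libraries, 7 fell in wild type (9.31% of all genes). In the mutant 2 of the 10 fell (1.36%), and 1 was higher in the mutant than in wild type after 5-FU (1.49%). Siglech, Klk1 and Cd209d were at 0 in all 5-FU libraries, and the list summed to 261 to 283 CPM in mutant 5-FU, 204 to 263 CPM in wild-type 5-FU, 327 to 512 CPM in mutant PBS and 377 to 598 CPM in wild-type PBS libraries. The part of these cell types in the Ly6 results was not tested.

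Neutrophil genes moved beside Ly6g. Of 13 listed genes, which do not include Ly6g, 12 fell in wild type (9.31% of all genes) and 8 in the mutant (1.36%) after 5-FU. Of the 13, 7 were tested only through their PBS libraries, Retnlg and Itgb2l among them, so these had to differ and their tests are a description. Retnlg, a secreted protein of mature neutrophils, averaged 0.115 CPM in mutant 5-FU, 0.00887 CPM in wild-type 5-FU, 114.7 CPM in mutant PBS and 170.3 CPM in wild-type PBS libraries (edgeR adjusted p = 8.66e-05 in the mutant and 1.8e-05 in wild type). Itgb2l, an integrin chain of neutrophils, also fell in both genotypes (edgeR adjusted p = 0.000608 in the mutant and 9.81e-05 in wild type) and was at 0 in all wild-type 5-FU libraries. The summed level of the list was 2.99 to 94.3 CPM in mutant 5-FU, 7.10 to 49.3 CPM in wild-type 5-FU, 4101 to 25420 CPM in mutant PBS and 3221 to 22150 CPM in wild-type PBS libraries. For each 1000 counts of the list, the PBS libraries held 1.98 to 3.44 Ly6g counts in the mutant and 1.47 to 3.05 in wild type. After 5-FU the list held 76, 2972 and 226 counts in mutant replicates, beside 2, 0 and 0 Ly6g counts. In wild-type 5-FU replicates it held 332, 267 and 1297, beside 0 Ly6g counts in each. Whether the ratio of the PBS libraries held after 5-FU was not tested. Granulocyte antigens are not named in the gate given in the labels, which lists B220, CD3, CD4, CD5 and CD8. What neutrophil RNA contributes to Ly6g was not tested.

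Interferon-stimulated genes, listed because Ly6a and Ly6e are interferon-inducible, were also followed. Of 30, 4 fell and 1 rose after 5-FU in wild type, where 9.31% of all genes were called lower and 14.9% in either direction. The median was −0.22, against −0.11 over all genes. Among the 4 were Ifit3, an antiviral effector (−1.61 ± 0.39, edgeR adjusted p = 0.0141), and Mx1, an antiviral GTPase (−1.95 ± 0.50, edgeR adjusted p = 0.0191). In the mutant 1 rose, the RNA sensor Oas1a (0.85 ± 0.20, edgeR adjusted p = 0.0372), and 0 fell, where 2.2% of all genes were called in either direction. These counts are near the shares of all genes, so the named genes are a description and no result about the list. Between genotypes 0 of 30 passed after 5-FU (1.95% of all genes) and 0 of 30 under PBS (0.0182%). Summed, the list stood at 1345 to 1773 CPM in mutant 5-FU, 990.1 to 1651 CPM in wild-type 5-FU, 1282 to 1656 CPM in mutant PBS and 1365 to 1606 CPM in wild-type PBS libraries, so the groups overlapped.

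Of other Ly6/uPAR family genes, 36 of 38 listed were in the tables and 12 were expressed enough to test. After 5-FU 7 of these 12 fell in wild type (9.31% of all genes) and 2 fell in the mutant (1.36%); none rose, and 0 of 12 passed between genotypes under PBS, after 5-FU or in the response. Of the 12, 3 were tested only through their PBS libraries (Cd177, Ly6g5b and 2010109I03Rik), so they had to differ. Gpihbp1, at 0 in all wild-type 5-FU libraries, is not among these but passed the filter without that group. Cd177, a neutrophil surface protein, averaged 0.10 TPM in mutant 5-FU, 0.137 TPM in wild-type 5-FU, 28.7 TPM in mutant PBS and 36.5 TPM in wild-type PBS libraries, and fell in both genotypes (edgeR adjusted p = 0.000607 in the mutant and 0.000232 in wild type). The gene 9030619P08Rik, the most abundant of the 12, averaged 25.5 TPM in mutant 5-FU, 72.8 TPM in wild-type 5-FU, 86.4 TPM in mutant PBS and 105 TPM in wild-type PBS libraries and also fell in both (−2.23 ± 0.42 in the mutant, edgeR adjusted p = 0.00821; −2.16 ± 0.42 in wild type, edgeR adjusted p = 0.00423). Plaur, the urokinase receptor, fell by counts in wild type (log2 fold change −1.29 ± 0.23, edgeR adjusted p = 0.00232). In TPM it averaged 21.2 in wild-type 5-FU (16.9 to 24.2) and 22.6 in wild-type PBS libraries (7.07 to 49.9), so these groups overlapped. On log2(TPM + 1) the median gene differed by 1.01 in this comparison, so the fall of Plaur depends on the scaling.

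Among the 7 were Ly6k and Ly6i, which lie within the same stretch of chromosome 15. Ly6k, between Ly6d and Ly6e (74796874 to 74799986, minus strand), had 7.57, 18.8 and 24.9 TPM in mutant 5-FU, 0.27, 0.13 and 0.89 TPM in wild-type 5-FU, 7.96 to 113 TPM in mutant PBS and 10.1 to 68.2 TPM in wild-type PBS libraries. Every wild-type 5-FU value was below every other, and Ly6k fell there (log2 fold change −8.72 ± 1.94, edgeR adjusted p = 0.0125). The wild-type 5-FU replicates held only 2, 1 and 6 Ly6k counts, near the floor of 3 counts per library. Ly6k therefore passed the filter through its other libraries alone, and this fold and its test are a description. Ly6i, beside Ly6a (74979534 to 74983430, minus strand) and with a coding sequence 86.4% identical to it, had 9.09, 9.93 and 35.8 TPM in mutant 5-FU, 1.00, 0.50 and 3.08 TPM in wild-type 5-FU, 2.97 to 30.2 TPM in mutant PBS and 3.99 to 40.7 TPM in wild-type PBS libraries. It fell in wild type (log2 fold change −5.80 ± 1.72, edgeR adjusted p = 0.0405), where its neighbour Ly6a did not pass. Lynx1, a modulator of nicotinic acetylcholine receptors, and 2010109I03Rik were at most 1.29 TPM in every library; both fell in wild type (edgeR adjusted p = 0.0118 and 0.0184).

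Across the 16 libraries, the genes whose log2 CPM followed each Ly6 gene most closely differed between them. The libraries share their scaling and their immunoglobulin share, so Pearson's r is given as a description. For Ly6a they were Tmed10 (r = 0.982), Tmem176a (0.981), Slc35b1 (0.98), Fkbp2 (0.979) and Rexo2 (0.978). Ly6d was followed by Igkc, the kappa light chain constant gene (0.995), Derl3 (0.993) and Mzb1 (0.992). Ly6c2 was followed by Hsd11b1 (0.991), Cd74 (0.986) and Igkc (0.984), and Ly6g by the neutrophil genes Retnlg (0.987), Orm1 (0.986) and Fcnb (0.981). Next to Ly6e stood Rnasek (0.986), Gabarap (0.983) and Cst3 (0.982). Ly6c1 had lower values, with Eif2s2 (0.934), Psmb7 (0.921) and Cdkn2d (0.919).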

How the data were processed

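RNA of sorted LSK cells was sequenced in 16 samples. RSEM 1.3.1, FastQC 0.11.2 and the mm10/GRCm38 genome are listed, according to the submitters' processing notes; which aligner and annotation release were used is not given in the sources used here. The authors deposited RSEM expected counts, TPM and FPKM per gene, as the file headers show. The deposited expected counts are estimates that share ambiguous reads between genes, and were rounded to whole numbers here. The deposited TPM values are scaled to 1e6 transcripts per library; the deposited FPKM values were not used for results. Symbols are those of the deposited tables. Of 53342 gene IDs, 99.8% matched GENCODE M21.

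edgeR 4.0.16 in R 4.3.3 filtered genes (filterByExpr, minimum count 10; 16482 left), scaled libraries with TMM and fitted a robust quasi-likelihood model with 1 mean per group over all 16 samples. P-values were adjusted by Benjamini and Hochberg over all genes tested. Standard errors are the log2 fold change over the square root of F. Log2 CPM (prior count 2) served for exact two-sided permutation tests of single genes, 24 in all, whose adjusted p ran from 0.107 to 1. DESeq2 1.42.0, limma 3.58.1 and other scalings were alternatives. The fit was tested on simulated data. A group with 0 counts is given a floor of 3 counts per library, and intervals are for 95% and counting error only. Sequences were compared with Biopython 1.88.

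The 6 genes and the gene lists were chosen with earlier results of these data known. Named beyond the 6 were family genes past the threshold (at most 8) or among the 3 most abundant, the 2 listed marker genes with the smallest p, and the 5 (Ly6a) or 3 genes most alike by Pearson's r, passing over predicted models. For cell types beyond plasma cells, B cells, monocytes and neutrophils only counts and levels are given, genes at 0 throughout a group are named as well, and 1 marker gene within the rule is not reported here. Same-numbered PBS samples of the genotypes deviated together from their group means (correlations of 0.165 to 0.569 over 5 pairs, own number highest in 4). The labels state no pairing. In both genotypes the immunoglobulin share was highest in PBS replicate 3 and lowest in PBS replicate 5, so these correlations alone do not establish one. In the other comparisons they ran from −0.158 to 0.168.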

Additional observations from a re-analysis of the deposited data

Results flagged for a closer look

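In the PBS groups of 5, the highest CPM of several Ly6 genes stood apart from the other 4, always in replicate 3, the library of each genotype with the highest immunoglobulin share. In mutant PBS replicate 3 these were Ly6a (3511 CPM), Ly6c2 (10529 CPM), Ly6d (1821 CPM) and Ly6g (50.4 CPM). In wild-type PBS replicate 3 they were Ly6a (3787 CPM), Ly6c1 (14.5 CPM) and Ly6d (1843 CPM). For independent, normally distributed values about 1 in 20 groups would hold such a value, and 12 were looked at. These 12 are not independent, because all genes of a library share its TMM factor (0.508 in mutant and 0.547 in wild-type PBS replicate 3). That rate therefore cannot be set against the values listed here. In TPM the same libraries held 18.1 TPM of Ly6g, inside its group's range of 15.2 to 26.5 TPM, and 1445 (mutant) and 1709 TPM (wild type) of Ly6a, the highest of their groups. The part of the immunoglobulin share in these values was not tested.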

How the results depend on the processing

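Of 759 values of the 6 genes under the alternatives, 640 kept their direction and their side of the threshold, 6 kept the direction but no longer passed, 40 newly passed and 73 turned sign. Ly6g kept its fall after 5-FU in all 24 alternatives in each genotype, and Ly6c2 and Ly6d were lower after 5-FU in wild type in all alternatives tried, although without wild-type 5-FU replicate 1 or 2 and within a code prefix neither passed (adjusted p from 0.053 to 0.39). The other results, by alternative, follow; a percentage beside a count is the share of all genes called by that fit, and causes were not tested beyond the shift of all genes. With upper-quartile scaling, the sign turned for Ly6e 0.013 between genotypes under PBS. With library totals alone (added after seeing the data), the count of the 6 past the threshold was 2 between genotypes after 5-FU (1.62%), 1 between the responses (1.03%). There the sign turned for Ly6c2 −0.049, Ly6g −0.075 between genotypes under PBS. By DESeq2, the count of the 6 past the threshold was 2 between genotypes after 5-FU (7.94%), 5 after 5-FU in wild type (27.9%), 1 between the responses (3.53%). There Ly6a passed after 5-FU in wild type (−2.73). By limma-voom with sample quality weights, the count of the 6 past the threshold was 3 between genotypes after 5-FU (30.9%), 5 after 5-FU in wild type (42.5%), 1 between the responses (4.39%). There Ly6a passed after 5-FU in wild type (−1.80). The sign turned there for Ly6a 0.0097, Ly6c1 0.34, Ly6c2 −0.075, Ly6e 0.16, Ly6g −0.044 between genotypes under PBS. By limma-trend on log2(TPM + 1), the count of the 6 past the threshold was 2 between genotypes after 5-FU (0.959%), 1 between the responses (0.34%). Signs turned for Ly6c2 −0.21, Ly6e 0.060 between genotypes under PBS, Ly6e −0.42 between genotypes after 5-FU, Ly6c1 0.65, Ly6e 0.18 after 5-FU in wild type, Ly6a 0.33 after 5-FU in the mutant, Ly6e −0.48, Ly6g −0.0067 between the responses. By limma-trend on log2(TPM + 0.1), the count of the 6 past the threshold was 2 between genotypes after 5-FU (1.19%), 2 between the responses (0.655%). Turned in sign were Ly6c2 −0.21, Ly6e 0.060 between genotypes under PBS, Ly6e −0.42 between genotypes after 5-FU, Ly6c1 0.79, Ly6e 0.18 after 5-FU in wild type, Ly6a 0.33 after 5-FU in the mutant, Ly6e −0.48 between the responses. In a fit that was not robust, the count of the 6 past the threshold was 1 between genotypes after 5-FU (2.14%). With the 2 groups fitted alone, the count of the 6 past the threshold was 2 between genotypes after 5-FU (14.1%). There Ly6a passed between genotypes after 5-FU (1.61). With the replicate number as a block, the count of the 6 past the threshold was 3 between genotypes after 5-FU (9.25%), 6 after 5-FU in wild type (44.4%), 2 after 5-FU in the mutant (6.15%), 1 between the responses (2.32%). There Ly6a passed between genotypes after 5-FU (1.87), after 5-FU in wild type (−3.24). This turned the sign of Ly6c2 −0.35 between genotypes under PBS, Ly6c1 −0.23 after 5-FU in the mutant. With code writing as a covariate, the count of the 6 past the threshold was 2 after 5-FU in the mutant (5.38%). Here the sign turned for Ly6c2 −0.42 between genotypes under PBS, Ly6a −1.07, Ly6c1 −1.94, Ly6e −1.03 between genotypes after 5-FU, Ly6c1 1.08 after 5-FU in wild type, Ly6c1 −0.44 after 5-FU in the mutant, Ly6a −0.65, Ly6c1 −1.52, Ly6e −0.97 between the responses. With the immunoglobulin share as a covariate, the count of the 6 past the threshold was 1 between genotypes after 5-FU (2.09%), 1 between the responses (1.17%). That turned the sign of Ly6c2 −0.068, Ly6e 0.092, Ly6g −0.018 between genotypes under PBS, Ly6c1 −0.50, Ly6e −0.31 between genotypes after 5-FU, Ly6a 0.61, Ly6c1 1.89, Ly6e 0.16 after 5-FU in wild type, Ly6a 0.83, Ly6d 0.33 after 5-FU in the mutant, Ly6c1 −0.37, Ly6e −0.40 between the responses. Within a code prefix, the count of the 6 past the threshold was 1 after 5-FU in wild type (0.369%), 2 after 5-FU in the mutant (2.62%). In that fit the sign turned for Ly6c1 2.51 after 5-FU in wild type, Ly6a −0.31, Ly6c1 −2.40, Ly6e −0.79 between the responses. The summed pair of Ly6c1 and Ly6c2, mostly Ly6c2 counts, had 0.12 between genotypes under PBS and −2.69 after 5-FU in the mutant, opposite in sign to Ly6c1 alone; both are among the 73. Between genotypes under PBS, where same-numbered samples deviated together, the block changed no call. Between genotypes after 5-FU, samples correlated best with their own number in 2 of 3 pairs (0.0203 to 0.115). For the other comparisons the counts with the block are those given above. Leaving out each library in turn, the results that turned sign, Ly6a in wild type and the counts ran as follows: Ly6c2 between genotypes under PBS from −1.10 to 0.83, Ly6e between genotypes under PBS from −0.47 to 0.47, Ly6a between genotypes under PBS from −1.06 to 0.77, Ly6c1 between genotypes under PBS from −1.07 to 0.45, Ly6d between genotypes under PBS from −1.54 to 0.88, Ly6c1 after 5-FU in wild type from −2.35 to 0.13, Ly6e between the responses from −0.0090 to 0.93, Ly6g between genotypes under PBS from −0.46 to 0.22, Ly6a after 5-FU in wild type from −3.14 to −1.77, the count after 5-FU in wild type from 1 to 5, the count between the responses from 0 to 1, Ly6g between the responses from −0.047 to 2.97. Uncalled differences also moved without turning, such as Ly6a in the mutant from −1.26 to −0.0059. The count in wild type was 1 without wild-type 5-FU replicate 1 or 2 and 5 without wild-type PBS replicate 5, and the count for the responses was 1 without mutant PBS replicate 3. RLE scaling, removal of immunoglobulin genes from the scaling, no filter on low counts and a minimum count of 50 ended, added or turned no call. Library totals alone moved the median of all genes to 0.44 after 5-FU in wild type, 0.218 in the mutant, −0.187 between genotypes after 5-FU and −0.229 between the responses. On log2(TPM + 1) that median was 1.01 after 5-FU in wild type, 0.325 in the mutant, −0.593 between genotypes after 5-FU and −0.684 between the responses; of the 15 sign turns on TPM scales, 4 were also turns relative to the median gene, as were 50 of 71 over all alternatives without the summed pair. A count of 3 in a library, the limit at this depth for a gene read 0 times, came to between 0.0798 and 0.272 CPM.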
